A study of Homo sapiens with 6 samples.

Results

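Human zinc finger genes, taken by a symbol of the form ZNF followed by a number, were examined in Hep3B cells. Hep3B is an established hepatocellular carcinoma line, in which the miR-17 family was inhibited. The genes were chosen by their mean level: a gene was kept when its best-measured probe set, the probe set with the highest mean, had a mean above 8 on the deposited log2 scale over all 6 arrays. This rule kept 195 of the 425 genes with such a symbol on the array, among 19775 genes with a single symbol in all and 13949 genes that passed a filter on low values. The values that chose the genes are levels over both groups together, so the levels are a description, and the difference between the groups is a separate measure. One group, miR-17 TuD, carried a lentiviral TuD (tough decoy, an RNA that holds microRNAs on unpaired sites) against miR-17, and the other, NC TuD, carried the control decoy, with 3 arrays each. Both groups came from cells transduced for 48 hours at a multiplicity of infection of 5, selected in puromycin and pooled after 2 weeks from resistant colonies, so that each group rests on a single pooled line. Nothing in the labels shows that the 3 arrays per group came from separate cultures, so p-values measure only the spread among these arrays, which may be technical. Serum (10%) and polybrene (10 µg/mL) were the same for all 6 arrays. A second code in the labels reads PLUSDOX for all miR-17 TuD arrays and NODOX for all NC TuD arrays, each with 72 hours. What this code stands for is not stated, and it cannot be told apart from the decoy.

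ZNF genes belong to the largest family of human transcription factors. Most encode tandem C2H2 fingers, each of which holds a zinc ion and reads a few bases of DNA. Many also carry a KRAB box at the amino terminus, which recruits the corepressor TRIM28 and, through it, the histone methyltransferase SETDB1 and HP1 proteins, and which is known for silencing transposable elements. Others lack the KRAB box and work in ribosome assembly, RNA processing or activation of transcription. MicroRNAs of the miR-17 family lower the level of mRNAs that pair with their seed, bases 2 to 8 of the mature strand.

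The microRNAs of the family are shown because the decoy is directed at miR-17 and the others share its seed; each is written 5′ to 3′ from RefSeq (GRCh38.p14) with the seed in capitals, and all 6 share 1 seed.
hsa-miR-17-5p: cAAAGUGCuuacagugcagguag
hsa-miR-20a-5p: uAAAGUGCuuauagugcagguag
hsa-miR-20b-5p: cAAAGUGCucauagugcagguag
hsa-miR-93-5p: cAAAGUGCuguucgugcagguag
hsa-miR-106a-5p: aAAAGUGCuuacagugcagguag
hsa-miR-106b-5p: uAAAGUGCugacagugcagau

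Facts of the arrays were as follows. Medians of the 6 arrays lay between 2.75 and 2.78, within a group the lowest and highest Pearson r over probe sets were 0.9994 and 0.99965, and no array duplicated another. All 8 hepatocyte markers examined were present, from 7.55 to 16.23 over all arrays; 7 of them fell in miR-17 TuD, with a median log2 difference of -0.62 over the 8, and their part in the results was not tested. Of 8 markers of immune, fibroblast or endothelial cells on the array, 5 were below 3 on every array. The exceptions were PDGFRB, at 3.72 to 3.96, and the collagen genes COL1A1 (12.42 to 13.03, adjusted p = 0.277 in limma) and COL1A2 (8.85 to 9.63, adjusted p = 0.193), and the part of these markers in the results was not tested. The ACTB control probe set at the 3′ end minus that at the 5′ end, on the log2 scale, was 0.68 on all miR-17 TuD arrays and 0.69 to 0.71 on the NC TuD arrays, and for GAPDH it was -0.26 to -0.24 and -0.25. Its part in the results was not tested.

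Lower levels outnumbered higher levels among the ZNF genes when miR-17 TuD was compared with NC TuD. In limma with Benjamini-Hochberg adjustment over all genes at a threshold of 0.05, 22 of 195 ZNF genes fell (11.3%) and 4 rose (2.05%). Of all 13949 genes tested, 4.6% fell and 6.78% rose, and of the 8824 genes with a mean above 8, 6.48% fell and 9.85% rose. The falls were led by the KRAB zinc finger gene ZNF331, at 1.41-fold, and the rises by ZNF593, a ribosome assembly factor, at 1.20-fold. Dropping miR-17 TuD replicate 1, 2 or 3 changed the falls to 11, 12 or 14 and the rises to 2, 2 or 0. Dropping NC TuD replicate 1, 2 or 3 changed the falls to 3, 4 or 4 and the rises to 0, 0 or 1. Calls over all 13949 genes, 642 falls and 946 rises with all arrays, shrank in the same fits. Without miR-17 TuD replicate 1, 2 or 3 there were 386, 327 or 569 falls and 719, 485 or 674 rises. Without NC TuD replicate 1, 2 or 3 there were 158, 148 or 207 falls and 216, 226 or 305 rises.

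Most differences were small. The median log2 difference of the 195 ZNF genes was -0.08, a 1.06-fold change, against 0.015 for all genes with a mean above 8. Differences were negative in 140 ZNF genes (71.8%) and positive in 55, whereas 45.6% of all genes with a mean above 8 had a negative difference. With each array centred on its median above the filter on low values (7.85 to 7.90), 128 of the 195 differences were negative and their median was -0.06. The median over all genes tested moved from 0.00056 to 0.023 in the same step. All 3 miR-17 TuD values lay below all 3 NC TuD values in 69 ZNF genes (35.4%, against 19.4% of genes with a mean above 8), and above them in 12 (6.15%, against 25.6%). Only 1 of the 195 genes, ZNF711, differed by more than 1.5-fold.

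**Figure D1:**
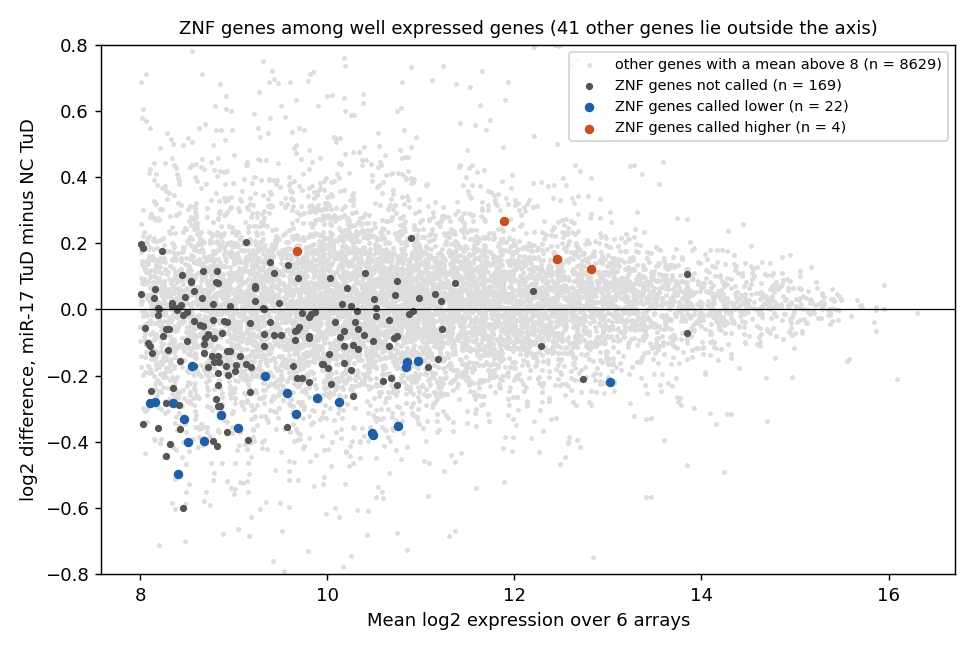
Mean log2 expression over 6 arrays (x axis) against the log2 difference of miR-17 TuD minus NC TuD (y axis) for all genes with a mean above 8; dark points are ZNF genes without a call, blue points the 22 that fell and orange points the 4 that rose. Of the ZNF genes, 140 lie below 0 and 55 above it, and 41 other genes lie outside the y axis limits of 0.8 in either direction.

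Array by array the same order was seen. Taking each gene's NC TuD mean as 0, the median over the 195 ZNF genes was -0.11, -0.07 and -0.06 on miR-17 TuD replicates 1, 2 and 3, and -0.007, 0.017 and -0.002 on NC TuD replicates 1, 2 and 3. The groups did not overlap. Setting each gene to its NC TuD mean holds the NC TuD medians near 0, so this view is not separate from the negative differences given above. For the other genes with a mean above 8, the same medians were 0.0076, 0.0077 and 0.036 on the miR-17 TuD arrays and 0.004, -0.003 and 0.001 on the NC TuD arrays. A ZNF gene was below its NC TuD mean in 155, 138 and 124 cases on the miR-17 TuD arrays and in 108, 74 and 99 cases on the NC TuD arrays.

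**Figure D2:**
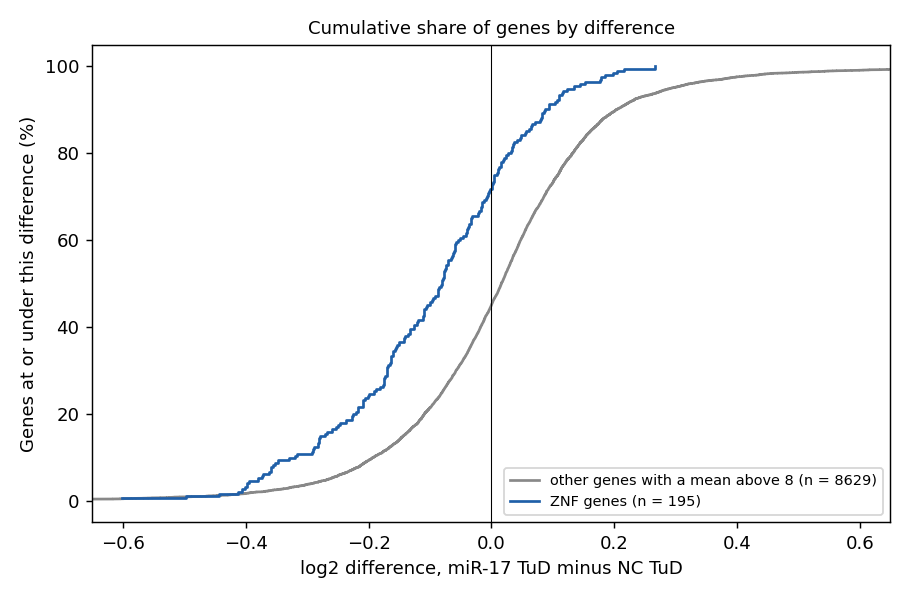
Cumulative share of genes (y axis, percent) by log2 difference of miR-17 TuD minus NC TuD (x axis) for the 195 ZNF genes (blue) and the 8629 other genes with a mean above 8 (grey). The blue curve lies to the left, reaching 71.8% at a difference of 0 where the grey curve reaches 45.0%.

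Among the falls, ZNF331, an imprinted KRAB zinc finger gene rearranged in thyroid adenomas, had values of 8.19, 8.21 and 8.07 on the miR-17 TuD arrays and 8.69, 8.74 and 8.53 on the NC TuD arrays. All miR-17 TuD values lay below all NC TuD values, and the gene fell 1.41-fold (log2 difference -0.50, SE 0.071, adjusted p = 0.0219 in limma). ZNF880, another KRAB zinc finger gene, had values of 8.32, 8.34 and 8.28 on the miR-17 TuD arrays and 8.67, 8.83 and 8.65 on the NC TuD arrays, and the groups again did not overlap (log2 difference -0.40, SE 0.057, adjusted p = 0.0219 in limma). For ZNF268, whose KRAB protein has been studied in blood cell development, the values were 8.63, 8.41 and 8.41 on the miR-17 TuD arrays and 8.84, 8.85 and 8.95 on the NC TuD arrays (log2 difference -0.40, SE 0.075, adjusted p = 0.0408 in limma). The miR-17 TuD replicate 1 value was the highest of its group and still under every NC TuD value.

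ZNF764, a KRAB zinc finger gene linked to glucocorticoid receptor activity, stood at 10.30 ± 0.14 in miR-17 TuD and 10.68 ± 0.038 in NC TuD (mean ± SD, n = 3 each) and fell 1.30-fold (adjusted p = 0.0466 in limma). ZNF559 stood at 10.29 ± 0.050 in miR-17 TuD and 10.67 ± 0.086 in NC TuD (mean ± SD, n = 3 each) and fell 1.30-fold (adjusted p = 0.0222), and ZNF736 stood at 8.87 ± 0.090 in miR-17 TuD and 9.23 ± 0.046 in NC TuD (mean ± SD, n = 3 each) and fell 1.28-fold (adjusted p = 0.0249); both encode KRAB proteins. The spread within a group was wider in miR-17 TuD for ZNF764 and ZNF736 and wider in NC TuD for ZNF559.

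ZNF322, named after its values were seen, and ZNF189 held their calls most often when single arrays were dropped. ZNF322, which encodes a finger protein without a KRAB box, had values of 10.76, 10.73 and 10.76 on the miR-17 TuD arrays and 10.92, 10.95 and 10.92 on the NC TuD arrays. The difference was small, 1.13-fold lower, with a spread of 0.017 and 0.015 (SD, n = 3) within the groups (log2 difference -0.18, SE 0.014, adjusted p = 0.00847 in limma). Of the 26 calls it was the only 1 to hold whichever of the 6 arrays was dropped, with adjusted p up to 0.0432. With the replicate number as a block its call was lost (adjusted p = 0.0523 in limma). ZNF189, a KRAB zinc finger gene, had values of 10.58, 10.62 and 10.55 on the miR-17 TuD arrays and 10.99, 10.93 and 10.89 on the NC TuD arrays and fell 1.28-fold (log2 difference -0.35, SE 0.034, adjusted p = 0.0105 in limma). Its call ended only without NC TuD replicate 2, at adjusted p = 0.0531 in limma. The calls of the other 20 genes that fell ended on dropping any of 3 to 6 arrays, and those of ZNF281 and ZNF587 on dropping any of the 6.

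Genes without a KRAB box were also among the falls. ZNF22, which encodes a small finger protein first described in tooth development, had values of 8.37, 8.30 and 8.25 on the miR-17 TuD arrays and 8.72, 8.57 and 8.62 on the NC TuD arrays (log2 difference -0.33, SE 0.050, adjusted p = 0.0252 in limma). ZNF165, a SCAN-domain gene expressed mainly in testis and in tumours, had values of 9.39, 9.56 and 9.57 on the miR-17 TuD arrays and 9.82, 9.82 and 9.83 on the NC TuD arrays (log2 difference -0.32, SE 0.054, adjusted p = 0.0329 in limma). The NC TuD values of ZNF165 lay within a narrow band, with an SD of 0.0079, and the miR-17 TuD values were all lower. ZNF281, a regulator of stemness and of epithelial to mesenchymal transition, had values of 12.87, 12.98 and 12.89 on the miR-17 TuD arrays and 13.07, 13.18 and 13.14 on the NC TuD arrays (log2 difference -0.22, SE 0.044, adjusted p = 0.0472 in limma).

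The other falls, of which all but ZNF823, ZNF573, ZNF550 and ZNF326 were named after their values were seen, included the KRAB genes ZNF823 (-0.32), ZNF573 (-0.28), ZNF550 (-0.28), ZNF564 (-0.28), ZNF124 (-0.27), ZNF587 (-0.25), ZNF670 (-0.20) and ZNF776 (-0.15), all as log2 differences, with adjusted p from 0.0151 to 0.0317 in limma. ZNF445, a SCAN and KRAB protein that maintains genomic imprints, fell 1.12-fold (log2 difference -0.17, SE 0.021, adjusted p = 0.0169 in limma). ZNF655, which binds the signalling protein VAV1, had values of 9.93, 10.04 and 9.98 on the miR-17 TuD arrays and 10.25, 10.30 and 10.23 on the NC TuD arrays (log2 difference -0.28, SE 0.037, adjusted p = 0.0188 in limma). ZNF326, described with the RNA-binding genes, completes the 22. In all 22, every miR-17 TuD value lay below every NC TuD value.

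**Figure D3:**
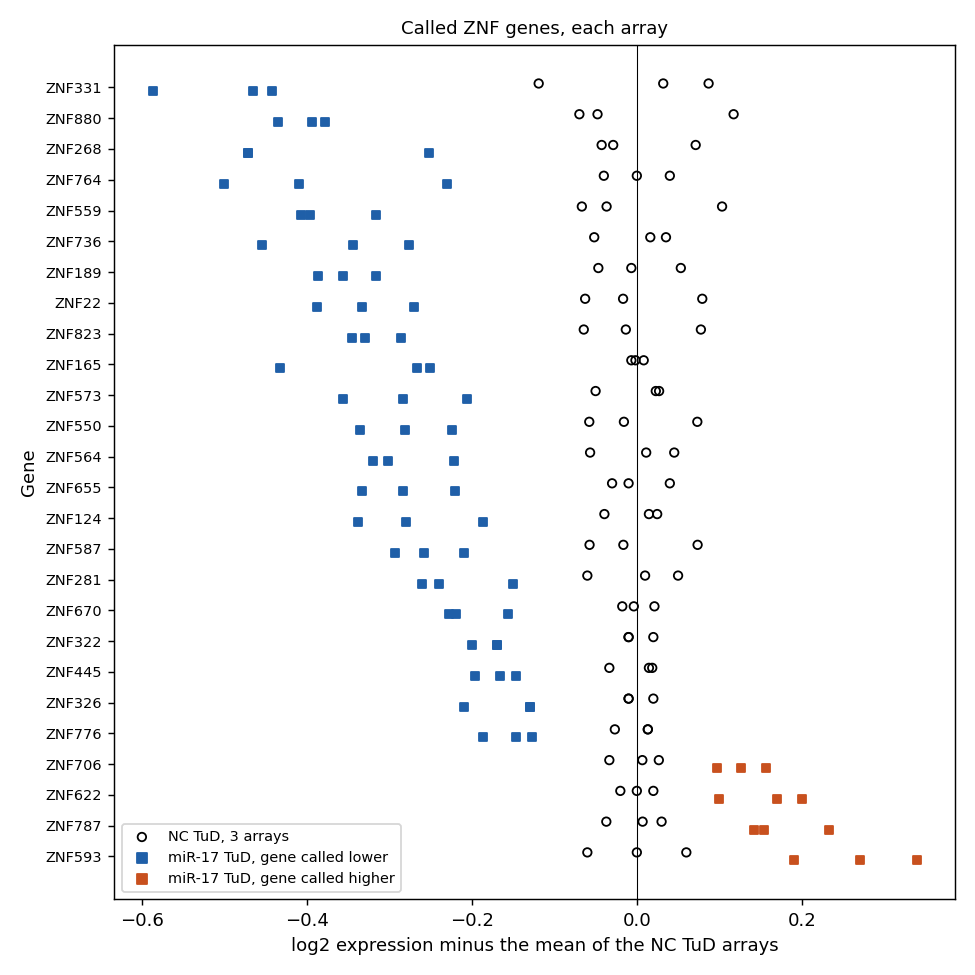
Log2 expression minus the mean of the 3 NC TuD arrays (x axis) for each of the 26 called ZNF genes (y axis): open circles are NC TuD arrays, blue squares miR-17 TuD arrays of genes that fell and orange squares miR-17 TuD arrays of genes that rose. In all 26 genes the squares and circles do not overlap, which a call with 3 arrays per group nearly requires. The squares of ZNF331 lie farthest to the left and those of ZNF593 farthest to the right.

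Among the 4 rises, ZNF593, which encodes a nucleolar protein with a single finger that acts in maturation of the large ribosomal subunit, had values of 12.10, 11.95 and 12.03 on the miR-17 TuD arrays and 11.76, 11.70 and 11.82 on the NC TuD arrays (log2 difference 0.27, SE 0.052, adjusted p = 0.0434 in limma). ZNF622, whose product acts in a late cytoplasmic step of large subunit maturation, had values of 12.55, 12.48 and 12.58 on the miR-17 TuD arrays and 12.38, 12.36 and 12.40 on the NC TuD arrays and rose 1.11-fold (log2 difference 0.15, SE 0.030, adjusted p = 0.045 in limma). ZNF706, which encodes a very short protein, had values of 12.91, 12.88 and 12.85 on the miR-17 TuD arrays and 12.78, 12.72 and 12.76 on the NC TuD arrays and rose 1.09-fold (log2 difference 0.12, SE 0.023, adjusted p = 0.0392 in limma). ZNF787 stood at 9.77 ± 0.049 in miR-17 TuD and 9.59 ± 0.034 in NC TuD (mean ± SD, n = 3 each, log2 difference 0.18, SE 0.033, adjusted p = 0.0388 in limma).

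In each of these 4 genes every miR-17 TuD value lay above every NC TuD value, which the call itself nearly requires. Dropping any of the 6 arrays ended the ZNF593, ZNF706 and ZNF787 calls, with adjusted p up to 0.134, 0.112 and 0.117 in limma, and dropping any of 5 ended the ZNF622 call, with adjusted p up to 0.151. ZNF706 reversed to -0.02 when all its probe sets were averaged; its second probe set, with a mean of 7.37, stood at 7.29 in miR-17 TuD against 7.45 in NC TuD.

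Several of the largest differences did not pass the threshold. ZNF711, an X-linked gene for a finger protein that works with the histone demethylase PHF8, had values of 8.05, 8.41 and 8.02 on the miR-17 TuD arrays and 8.74, 8.86 and 8.68 on the NC TuD arrays (log2 difference -0.60, SE 0.13, adjusted p = 0.0507 in limma). Its groups did not overlap, but miR-17 TuD replicate 2 stood well above the other two of its group. ZNF700 stood at 8.61 ± 0.15 in miR-17 TuD and 9.03 ± 0.061 in NC TuD (mean ± SD, n = 3 each, adjusted p = 0.0516 in limma), ZNF431 at 8.05 ± 0.19 in miR-17 TuD and 8.49 ± 0.10 in NC TuD (mean ± SD, n = 3 each, adjusted p = 0.0812) and ZNF91, a KRAB protein that binds SVA retrotransposons, at 8.11 ± 0.19 in miR-17 TuD and 8.52 ± 0.20 in NC TuD (mean ± SD, n = 3 each, adjusted p = 0.166). Dropping miR-17 TuD replicate 2 took ZNF711 past the threshold (adjusted p = 0.0274 in limma), and dropping miR-17 TuD replicate 1 did so for ZNF700 (adjusted p = 0.0435).

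Mean signals of the 195 genes' probe sets ran from 8.01 to 13.85 with a median of 9.18; signals of different probe sets do not rank genes by expression. The highest signals were those of ZNF207, a mitotic spindle and BUB3-binding protein, with values of 13.99, 13.84 and 13.89 on the miR-17 TuD arrays and 13.83, 13.78 and 13.79 on the NC TuD arrays, and ZNF664, with values of 13.79, 13.87 and 13.80 on the miR-17 TuD arrays and 13.88, 13.92 and 13.86 on the NC TuD arrays. Neither passed (adjusted p = 0.207 and adjusted p = 0.185 in limma). The probe sets of ZNF281, ZNF706, ZNF146 and ZNF622 had the next highest signals. ZNF146, which consists almost only of fingers and is often amplified in tumours, stood at 12.63 ± 0.081 in miR-17 TuD and 12.84 ± 0.021 in NC TuD (mean ± SD, n = 3 each, adjusted p = 0.0528).

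Grouped by the mean signal of their probe sets, the ZNF genes were called as follows. Of 88 genes with a mean up to 9, 9 fell and none rose; of 47 between 9 and 10, 5 fell and 1 rose; and of 45 between 10 and 11, 7 fell and none rose. Their medians were -0.10, -0.08 and -0.08 on the log2 scale, and 64, 35 and 34 differences were negative. Among the 15 genes above 11, 1 fell and 3 rose, the median was 0.024, and 7 differences were negative. All genes tested in the same 4 bands had medians of 0.0049, 0.012, 0.016 and 0.017; of them 4.86%, 6.32%, 7.43% and 6.68% fell and 6.51%, 8.77%, 10.6% and 11.2% rose. The share of ZNF genes that fell was 10.2%, 10.6%, 15.6% and 6.67% in these bands, so above 11 it was near that of all genes. A difference between the bands of ZNF genes was not tested.

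The level rule left 6 genes with a group mean at or under 8, of which ZNF573 fell and none rose, and the other 189 gave 21 falls and 4 rises. Just inside the level of 8 were ZNF598 (8.025), ZNF346 (8.011) and ZNF213 (8.009), and just outside were ZNF253 (7.985), ZNF556 (7.968) and ZNF316 (7.962), as means over 6 arrays.

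Grouped by known role, 26 of the 195 genes belonged to 5 lists. Of all genes with a mean above 8, 6.48% fell and 9.85% rose. The 4 genes of translation and ribosome assembly all had positive differences, with a median of 0.17, and 2 of them, ZNF593 and ZNF622, rose. ZNF598, the ubiquitin ligase that senses collided ribosomes, had values of 8.01, 8.05 and 8.29 on the miR-17 TuD arrays and 7.94, 7.93 and 7.92 on the NC TuD arrays (log2 difference 0.19, SE 0.081, adjusted p = 0.228 in limma). ZNF330, a nucleolar protein, differed by 0.05 (adjusted p = 0.579), and by -0.0044 without miR-17 TuD replicate 1.

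Of the 3 RNA-binding genes, 1 fell. ZNF326, a subunit of the DBIRD complex that couples splicing to elongation by RNA polymerase II, had values of 10.80, 10.80 and 10.72 on the miR-17 TuD arrays and 10.95, 10.92 and 10.92 on the NC TuD arrays (log2 difference -0.16, SE 0.026, adjusted p = 0.0293 in limma). The groups lay apart by a small margin. ZNF638, which binds RNA and takes part in silencing of unintegrated retroviral DNA, stood at 10.50 ± 0.053 in miR-17 TuD and 10.71 ± 0.13 in NC TuD (mean ± SD, n = 3 each, adjusted p = 0.152), and ZNF346, which binds double-stranded RNA, at 8.11 ± 0.15 in miR-17 TuD and 7.91 ± 0.069 in NC TuD (mean ± SD, n = 3 each, adjusted p = 0.241).

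No gene of the chromatin scaffold and silencing list passed, with 7 of its 11 genes in the group and 6 of these differences negative (median -0.14, against -0.08 for the 195 genes). Of the 9 list genes tested at any level, 2 had an unadjusted p under 0.05 in limma. Of all 13949 genes tested, 3880 did, so the list does not stand out by this count. ZNF451, a SUMO ligase, differed by -0.23 (adjusted p = 0.226 in limma), ZNF827, a telomere and NuRD-binding protein, by -0.21 (adjusted p = 0.138), ZNF532, a partner of the ZMYND8 complex, by -0.18 (adjusted p = 0.146) and ZNF644, a partner of the methyltransferase G9a, by -0.14 (adjusted p = 0.339). ZNF274, which recruits SETDB1 to the 3′ ends of ZNF genes themselves, was named after its values were seen, which were 12.14, 12.28 and 12.28 on the miR-17 TuD arrays and 12.16, 12.19 and 12.18 on the NC TuD arrays (adjusted p = 0.481), with the groups overlapping.

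Of 11 sequence-specific regulators, ZNF281 fell and none rose, 9 differences were negative and the median was -0.07. ZNF516 had the largest difference, at 8.25 ± 0.18 in miR-17 TuD and 8.61 ± 0.042 in NC TuD (mean ± SD, n = 3 each, adjusted p = 0.0869 in limma), followed by ZNF395 at 8.27 ± 0.14 in miR-17 TuD and 8.56 ± 0.051 in NC TuD (mean ± SD, n = 3 each, adjusted p = 0.0867). ZNF24, a SCAN protein needed for stem and progenitor cell proliferation, differed by -0.23 (adjusted p = 0.139). The mitosis list held ZNF207 alone. In all, 4 genes of these 5 lists were called. As a share this is near that of all genes with a mean above 8, of which 6.48% fell and 9.85% rose. Dropping miR-17 TuD replicate 1, 2 or 3 left 1, 2 or 2 of the 4 calls, and dropping any NC TuD array left 0. Differences between the lists and other genes were not tested.

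Among the corepressors through which KRAB proteins act, 1 of 23 measured genes of a list of 25 rose and 1 fell, and the median log2 difference was -0.006. These counts are near the share of all genes tested, of which 6.78% rose and 4.6% fell. TRIM28, the KRAB-binding scaffold, had a mean of 13.02 in miR-17 TuD (SD 0.030) and 12.96 in NC TuD (SD 0.028, n = 3 each), with adjusted p = 0.154 in limma, and SETDB1 had 9.46 (SD 0.10) and 9.43 (SD 0.049), with adjusted p = 0.824. KDM1A, a histone demethylase of the CoREST complex, rose 1.14-fold, from values of 10.97, 10.97 and 10.95 on the NC TuD arrays to 11.14, 11.16 and 11.16 on the miR-17 TuD arrays (adjusted p = 0.00338). TASOR, a subunit of the HUSH silencing complex, fell 1.20-fold (mean 9.29, SD 0.038, in miR-17 TuD and 9.56, SD 0.083, in NC TuD, n = 3 each, adjusted p = 0.0392); dropping any array but NC TuD replicate 3 ended its call, and on its probe set without the s_at suffix the difference was 0. The HP1 gene CBX5 (-0.32, adjusted p = 0.0511) and the SETDB1 partner ATF7IP (-0.31, adjusted p = 0.0556) did not pass; these, TRIM28 and SETDB1 lie outside the naming rule. The count of called corepressors was 1 on dropping NC TuD replicate 1 or 2 or miR-17 TuD replicate 3.

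Other zinc finger genes were set beside them. Of 196 ZNF genes tested with a mean at or under 8, ZNF107 (-0.47), ZNF136 (-0.45), ZNF793 (-0.27) and ZNF879 (-0.25) fell and ZNF584 (0.36), ZNF597 (0.28) and ZNF626 (0.11) rose, as log2 differences with adjusted p from 0.0144 to 0.0491 in limma; all genes of this paragraph were named after their values were seen. Their median was -0.05 and 131 differences (66.8%) were negative. Of 27 ZBTB genes with a mean above 8, which join fingers to a BTB domain, ZBTB10 (-0.54), ZBTB18 (-0.36), ZBTB21 (-0.22) and ZBTB34 (-0.22) fell and ZBTB7A (0.35) rose, with a median of -0.04. Of 14 ZSCAN and ZKSCAN genes above 8, ZKSCAN1 (-0.37), ZKSCAN8 (-0.30) and ZKSCAN5 (-0.10) fell and none rose, with a median of -0.07. Differences were negative in 59.3% of the ZBTB genes and 71.4% of the ZSCAN and ZKSCAN genes, against 45.6% of all genes above 8. All miR-17 TuD values lay below all NC TuD values in 37.0% and 21.4% of them (19.4% of all genes above 8), and above in 11.1% and 0% (25.6%). Called genes numbered 7, 5 and 3 in these groups. The share that fell was 2.04%, 14.8% and 21.4%, and the share that rose 1.53%, 3.70% and 0%. Of all genes tested 4.6% fell and 6.78% rose, and of those with a mean above 8, 6.48% fell and 9.85% rose. Dropping miR-17 TuD replicates 1, 2 or 3 left 5, 2 or 6 of the 7, 2, 2 or 3 of the 5 and 0, 1 or 1 of the 3; dropping NC TuD replicates 1, 2 or 3 left 1, 2 or 2, then 1, 3 or 1, then 0, 0 or 1. Differences between these groups and the 195 genes were not tested.

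Further probe sets of the same genes gave a measure that the choice of genes did not use, on the same arrays. They numbered 197 for 119 of the genes, and 130 (66.0%) had a negative difference. Of the 60 with a mean above 8, 49 were negative (81.7%, median -0.11), against 52.8% of 5456 further probe sets above 8 of other genes (median -0.009). In a limma fit over 32768 probe sets, where 2.48% fell and 3.35% rose, 5 of the 197 fell and none rose. The ZNF genes that fell had 19 further probe sets, for 15 of the genes. Of these 14 had a negative difference and 2 fell. Only 4 of the 19 had a mean above 8, all with a negative difference, and 1 of them fell.

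For ZNF281, further probe sets stood at 12.35 against 12.60 and 12.52 against 12.74, differences of -0.24 and -0.22 beside -0.22 on the chosen probe set. For ZNF322 the other probe set differed by -0.14, from 10.61 in NC TuD to 10.47 in miR-17 TuD. ZNF331 differed by -0.66 on its other probe set, with means of 7.20 in miR-17 TuD and 7.86 in NC TuD. ZNF12, a KRAB gene named after its values were seen, had differences of -0.33, -0.41 and -0.36 on further probe sets beside -0.21 on the chosen set (adjusted p = 0.0654 in limma). None of the further probe sets of ZNF281, ZNF322, ZNF331 and ZNF12 passed in limma over probe sets (lowest adjusted p = 0.0567, for ZNF281). ZNF655 was split, at -0.47 on a probe set that fell (adjusted p = 0.0114 over probe sets) and 0.32 on another, and ZNF445 stood at 0.13 on a weak probe set with a mean of 5.56. ZNF207 was also split: its strong probe sets differed by 0.11, and 1 at a mean of 8.42 by -0.33. Probe sets marked s_at or x_at, which can bind transcripts of related genes, measured 52 of the 195. Of these 3 fell (5.77%, near the 6.48% of all genes with a mean above 8). With such probe sets left out, 164 ZNF genes were measured, 17 fell and 2 rose. In that fit 407 of all 11129 genes tested fell and 520 rose.

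**Figure D4:**
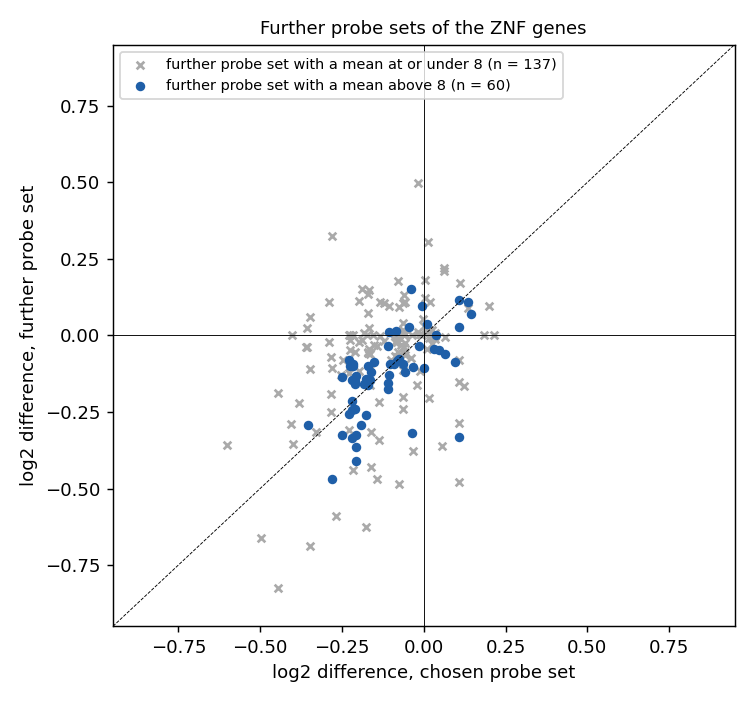
Log2 difference of miR-17 TuD minus NC TuD on the chosen probe set of a ZNF gene (x axis) against that on each further probe set of the same gene (y axis); blue points are further probe sets with a mean above 8, grey crosses those at or under 8, and the dashed line marks equal differences. Of the 60 blue points 49 lie below 0 on the y axis, and of the 137 crosses 81 do.

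By place in the genome, 92 of the 195 genes are on chromosome 19, where ZNF genes lie in long clusters. On that chromosome 9 fell, 1 (ZNF787) rose and 72 differences (78.3%) were negative, with a median of -0.11; of the 103 on other chromosomes 13 fell, 3 rose and 68 (66.0%) were negative, with a median of -0.06. All 7 genes on chromosome 6 had negative differences, with 2 falls, ZNF165 and ZNF322, whereas 4 of 11 on chromosome 16 were negative. All 5 genes on chromosome 18 and 1 of 5 on chromosome 17 were negative. These chromosomes were picked after their values were seen. Differences between chromosomes were not tested, and shares of all genes by chromosome were not taken. In the RefSeq gene order, 37 pairs of these genes are direct neighbours among protein-coding genes. Both differences were negative in 21 pairs, both positive in 5 and opposite in 11, and no pair held a fall on both sides. Of all 195 genes, 71.8% had a negative difference and 11.3% fell. Whether neighbours were more alike than other ZNF genes was not tested. ZNF880 (-0.40), for example, lies beside ZNF610 (0.085), and ZNF331 (-0.50) beside ZNF813 (-0.24); these neighbours were named after their values were seen.

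Promoter windows, 250 bases before to 50 after the annotated start, were matched for 171 of the 195 genes, with the first listed start of each gene. They held a median of 23 CpG dinucleotides, against 27 in the 7271 promoters of other genes above 8 and 14 in all 27305 of the table. The ETS core CCGGAA, searched on both strands as were the motifs that follow, was found in 52.6% of them, against 32.2% of promoters of other genes above 8 and 17.6% of all. The CCAAT box was found in 47.4% (37.9% and 35.7%), the GC box GGGCGG in 69.0% (72.6% and 44.6%), the E-box CACGTG in 7.02% (11.2% and 7.43%), the cAMP response element TGACGTCA in 5.26% (3.51% and 1.98%) and the TATA box TATAAA in 2.92% (5.10% and 11.9%). Matches of different motifs can overlap: the GC box read on the other strand, CCGCCC, ends in letters with which CCAAT begins.

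Among the genes that fell, 20 had a promoter, and of these 12 held the ETS core and 15 the CCAAT box, against 51.7% and 43.7% of the 151 other ZNF promoters. The median difference was -0.11 in the 81 genes with a CCAAT box and -0.08 in the 90 without it, and -0.11 in the 90 genes with an ETS core and -0.08 in the 81 without it. The sizes of these differences were not tested, and a match is a description of letters only.

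The promoters of 3 leading falls, of ZNF189 and ZNF322 and of 2 rises show how these motifs sit in single genes. Each line gives the 150 bases before the start (RefSeq, GRCh38.p14), 5′ to 3′ on the gene's strand, with any of the 6 motifs or its reverse complement in capitals.
ZNF331, chr19:53520864-53521013, plus strand: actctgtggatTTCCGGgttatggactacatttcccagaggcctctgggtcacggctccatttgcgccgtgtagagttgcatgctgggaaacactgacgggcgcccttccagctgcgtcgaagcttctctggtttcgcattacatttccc
ZNF880, chr19:52369773-52369922, plus strand: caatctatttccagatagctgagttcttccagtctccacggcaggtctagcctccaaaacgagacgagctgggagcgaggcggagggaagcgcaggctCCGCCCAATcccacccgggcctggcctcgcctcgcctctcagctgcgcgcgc
ZNF268, chr12:133181345-133181494, plus strand: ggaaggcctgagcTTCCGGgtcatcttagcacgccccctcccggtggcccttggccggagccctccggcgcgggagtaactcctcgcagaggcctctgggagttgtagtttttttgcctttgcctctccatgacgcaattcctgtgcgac
ZNF189, chr9:101398701-101398850, plus strand: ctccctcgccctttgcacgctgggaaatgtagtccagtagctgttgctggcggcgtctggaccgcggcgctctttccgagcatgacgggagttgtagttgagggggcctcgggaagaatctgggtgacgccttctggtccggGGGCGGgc
ZNF322, chr6:26659747-26659896, minus strand: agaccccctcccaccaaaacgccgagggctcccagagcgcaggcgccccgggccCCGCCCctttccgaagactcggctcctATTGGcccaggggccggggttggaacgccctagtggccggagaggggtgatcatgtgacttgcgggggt
ZNF593, chr1:26169758-26169907, plus strand: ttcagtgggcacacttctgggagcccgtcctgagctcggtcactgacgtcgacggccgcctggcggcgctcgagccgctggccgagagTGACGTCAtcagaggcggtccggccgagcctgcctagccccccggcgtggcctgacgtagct
ZNF787, chr19:56121296-56121445, minus strand: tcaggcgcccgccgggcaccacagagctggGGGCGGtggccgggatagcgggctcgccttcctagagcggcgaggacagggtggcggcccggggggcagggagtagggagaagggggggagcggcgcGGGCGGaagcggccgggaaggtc

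In these windows ZNF331 and ZNF268 each hold an ETS core, ZNF880 and ZNF322 each a CCAAT box and a GC box, which share letters in ZNF880, and ZNF189 a GC box near the start. Of the genes that rose, ZNF593 holds a cAMP response element and ZNF787 has 2 GC boxes. No motif is found in all 5 of the printed promoters of genes that fell.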

How the data were processed

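Total RNA of 6 samples was measured on Affymetrix HG-U133 Plus 2 arrays. The deposited values are log2 expression, 1 per probe set and array; per the submitters' processing notes, RMA and GCRMA were used, with no version or role given. Values were kept as deposited; 34.9% to 35.4% of an array's values lie at the lowest value, 2.12, which hides changes of weak genes. No detection call or scan date was used.

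GEO's platform annotation named the probe sets, and all 195 symbols matched RefSeq (GRCh38.p14). Probe sets at or under the 40th percentile of means (2.14) were left out, and the probe set of highest mean stood for its gene. The test was limma (version 3.58.1, R 4.3.3; lmFit, then eBayes; 2-sided, Benjamini-Hochberg over 13949 genes, threshold 0.05), tested first on simulated data. Prior degrees of freedom were 0.72, so each variance rests mostly on the gene's own 6 values. ZNF592 and ZNF219 had identical values on all NC TuD arrays and were not called.

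Named genes were the 12 largest falls and rises past the threshold without overlap, the 6 highest levels, the 4 largest differences without a call, up to 4 genes per role list, 3 on each side of the level rule and called corepressors. Other genes are marked as named after their values were seen. The genes and lists were chosen with earlier results of these data known. Alternatives are in the closing section. A planned grouping by protein domains was not run, because no protein sequences were used here; domains are given as background.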

Additional observations from a re-analysis of the deposited data

How the results depend on the processing

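The main fit gave 22 falls and 4 rises. Total ZNF falls were 34 with the 60th percentile filter, 31 with quantile normalization, 26 with median centring and 24 with array weights. They were 20 with the trend and robust variance model, 17 with s_at and x_at probe sets removed and 16 on averaged probe sets. With no filter on low values they were 11, and with 1 array left out 3 to 14. Falls over all genes tested, 642 in the main fit, numbered 926, 815, 717, 678, 583, 407, 591 and 305 in this order. With 1 array left out they numbered 148 to 569. Of the 22 ZNF falls, 22, 22, 19, 21, 20, 17, 13 and 11 kept their call in this order. With 1 array left out, 3 to 10 of the 22 did. The rises numbered 4 under 3 of these settings, 3 under quantile normalization and averaged probe sets, and 2 with array weights and without s_at and x_at probe sets. They were 0 with no filter and 0 to 2 with 1 array left out. Rises over all genes tested, 946 in the main fit, numbered 1178, 1044, 1426, 980, 915, 520, 884 and 484 in the order of settings given for the falls. With 1 array left out they numbered 216 to 719. Genes tested numbered 10773 with the 60th percentile filter, 11129 without s_at and x_at probe sets, 19775 with no filter and 13949 otherwise. The median of the ZNF genes stayed between -0.09 and -0.06. With the replicate number of the labels as a replicate block, 14 ZNF genes fell and 0 rose. Over all 13949 genes tested, 355 fell and 467 rose in that fit, against 642 and 946 in the main fit. Of the 22 ZNF falls, 9 kept their call and ZNF322 lost it (adjusted p = 0.0523 in limma). Same-numbered samples correlated in their deviations from the group means at r = 0.03, 0.13 and 0.10 over all genes and 0.12, 0.30 and 0.22 over genes above 8; every sample correlated best with its own number, a hint from the data, not the design. Without a filter and under the block all 4 rises lost their call. Corepressors called numbered 5 with the 60th percentile filter and with quantile normalization, 6 with median centring, 1 with no filter, 0 without s_at and x_at probe sets (TASOR then differed by 0), and 1 to 2 with 1 array left out. Role list genes called numbered 0 with no filter, 1 without s_at and x_at probe sets, 2 with array weights, 1 under the block and 0 to 2 with 1 array left out. ZNF genes at or under 8 called numbered 3 with no filter, 11 with median centring, 3 without s_at and x_at probe sets, 4 under the block and 1 to 6 with 1 array left out. ZBTB genes called numbered 2 with no filter and 1 to 3 with 1 array left out. ZSCAN and ZKSCAN genes called numbered 1 with no filter, without s_at and x_at probe sets, with array weights and under the block, and 0 to 1 with 1 array left out. Calls over all genes tested changed in these settings too, as given above. Negative differences among the 195 genes, 140 as reported, numbered 128 with median centring, 146 with array weights and 133 to 155 with 1 array left out, so the sign of further genes changed. Among the genes the text follows by name through these settings, those that changed sign were ZNF706 (-0.020) and ZNF207 (-0.14) with averaged probe sets, ZNF556 (0.011) with array weights and, on dropping single arrays, ZNF330 (-0.0044 to 0.077), ZNF556 (-0.13 to 0.070) and ZNF316 (-0.018 to 0.059). With no filter, 19775 genes enter the adjustment, and a dropped array removes a sample; for the other settings the cause was not tested. The number of arrays limits the precision.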
